A study of Mus musculus with 12 samples.

Results

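The comparison set 3 kidneys of wild-type mice treated with cisplatin against 3 kidneys of wild-type mice given saline, and asked what repeated low-dose cisplatin does to the RNA of a kidney that can repair crosslinked DNA. The 6 libraries are those labelled wild-type, out of 12 in the series, and every gene with a transcript abundance of at least 1 TPM (transcripts per 1000000 transcripts) in at least 3 of the 12 libraries was tested, 14972 of 27179 genes. The mice were 8 to 12 weeks old. The labels give a mixed strain background, whereas the study's methods describe backcrossing of the FAN1KO mice to a named inbred strain. Cisplatin was given at 2 mg/kg by intraperitoneal injection once a week for 5 weeks, saline on the same schedule, and whole kidneys were frozen for RNA. The labels name no allele or Cre for the wild-type mice, and by the study's methods both males and females were injected. The other 6 libraries, 3 of saline-treated and 3 of cisplatin-treated kidneys, came from γGT1-Cre;Fan1-/- mice (FAN1KO), which lack the DNA repair nuclease FAN1 in proximal tubule cells. Those kidneys share no sample with the wild-type comparison and appear only beside it.

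Cisplatin is a platinum drug that binds DNA bases and links them within and between strands. Proximal tubule cells, which reabsorb most of the filtered load, take it up through basolateral transporters and carry most of its renal toxicity. Lesions that stall replication or transcription activate checkpoint kinases, which stabilize the transcription factor p53. p53 then switches on genes that halt the cell cycle, genes that feed back on p53 itself, genes of apoptosis, and genes of repair and metabolism.

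The tissue label was checked by markers of the proximal tubule. The phosphate transporter gene Slc34a1 had a TPM of 2681, 2706 and 2717 in the saline kidneys and 2776, 2087 and 2476 in the cisplatin kidneys. Reads assigned to genes, recovered from the steps in the TPM, numbered 41915537 to 82947186 in saline and 37201912 to 58016125 in cisplatin libraries, so that 1 read in a gene of 1 kilobase was worth at most 0.0479 TPM. Sex-linked RNA and RNA of neighbouring tissue set libraries apart within the groups. Saline replicate 3 and cisplatin replicate 1 held RNA from the Y chromosome (Uty, Kdm5d, Ddx3y and Eif2s3y), with a mean log2(TPM + 1) of 3.46 and 3.72, against at most 0.035 in the other 4, and their deviations from the group means followed each other (r = 0.78 across genes, which are not independent replicates). Saline replicate 2 held adrenal and adipocyte RNA: the 9 adrenal genes listed summed to a TPM of 203 there and to 2.19 to 3.85 in the other 5 wild-type libraries, and the 9 adipocyte genes to 620 against 73.6 to 286.

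Fan1 itself (Gene 330554) had a TPM of 3.80, 3.35 and 1.98 in saline and 2.33, 3.57 and 3.32 in cisplatin kidneys of wild-type mice. The groups overlapped, with a log2 fold change of 0.03 (SE 0.27), so that a difference in Fan1 RNA was not detectable.

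The sequences shown first are the promoter stretches that bear on the main result. The p53 response element was searched in 32851 windows, from 250 bases before to 50 bases after annotated starts of RefSeq genes (GRCm38.p6). Some genes had several windows. The windows did not cover every chromosome. Both strands were covered, since the palindromic form of the element makes them equal. The element was taken as a pair of 10-base p53 consensus motifs at most 13 bases apart. The core C and G of each motif were required, with at most 2 other letters off. Of 27025 genes with a window, 4.71% held a match, as did 4.64% of the 11115 tested genes with a window. Among the genes called higher by cisplatin below, 2 of the 8 with a window held one, Cdkn1a and Ccng1. Of the 54 genes with a window on the p53 target lists used here, 9 held one (16.7%), Bax among them. The rest of the 9 were Gtse1, Ckap2, Zfp365, Pml, Gpx1 and Sesn1. Their log2 fold changes after cisplatin in wild-type kidneys were 1.28, 0.81, 0.59, 0.21, 0.09 and 0.02. Whether a match goes with a rise was not tested. The motif pair is in capitals, and each stretch is written 5′ to 3′ on the strand of its gene. The positions of the pair's first base are counted from the annotated start of its window. In Ccng1 and Bax that start is not the outer end of the gene. The stretches lie at chr17:29090866-29090977, plus strand, position −73 (Cdkn1a), chr11:40755422-40755521, minus strand, position −195 (Ccng1) and chr7:45467039-45467139, minus strand, position −201 (Bax).
Cdkn1a: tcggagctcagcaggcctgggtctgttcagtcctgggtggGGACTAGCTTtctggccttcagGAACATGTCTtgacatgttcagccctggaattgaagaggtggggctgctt
Ccng1: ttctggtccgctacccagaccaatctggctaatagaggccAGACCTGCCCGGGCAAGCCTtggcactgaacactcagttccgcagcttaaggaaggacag
Bax: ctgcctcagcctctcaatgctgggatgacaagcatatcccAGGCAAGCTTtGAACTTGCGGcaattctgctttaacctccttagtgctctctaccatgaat
The Cdkn1a match had 0 letters off with 12 bases between the motifs, the Ccng1 match 1 letter off with 0 bases between, and the Bax match 2 letters off with 1 base between. Only the pair with the fewest letters off in a window is in capitals. In Cdkn1a the 10 lower-case bases right after the second motif also pair with it, with 1 letter off and 0 bases between. A match describes letters in the window and is not a measured binding site.

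In wild-type kidneys, cisplatin raised p53 target genes. By limma on log2(TPM + 1), in which the 4 groups of the series share 1 estimate of the spread, with Benjamini-Hochberg adjustment over the 14972 genes, 9 genes were higher at an adjusted p under 0.05 (0.0601% of the genes tested) and 0 were lower. At an unadjusted p under 0.05 there were 382 higher (2.55%) and 67 lower (0.448%), and the 3 cisplatin values lay wholly above the 3 saline values for 779 genes (5.20%) and wholly below for 161 (1.08%). Of the 9 genes, 8 are on the p53 target lists: Cdkn1a, Phlda3, Plk2, Ccng1 and Sesn2 of arrest and feedback, Aen of apoptosis, and Gdf15 and Exoc4 of repair and metabolism. These lists were chosen with earlier results of these data known. The ninth, Mir5106, is described last.

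Cdkn1a (12575; chromosome 17, 29090979 to 29100722) encodes p21, the inhibitor of cyclin-dependent kinases that executes the p53 arrest. Its TPM was 6.88, 9.98 and 8.13 in saline and 56.8, 99.2 and 169 in cisplatin kidneys, from 8.33 ± 1.56 to 108 ± 56.7 (SD, n = 3). The groups lay far apart, and the cisplatin libraries spread far more than the saline ones.
Phlda3 (27280; chromosome 1, 135766085 to 135769134), whose product holds back the survival kinase AKT, had a TPM of 7.03, 12.3 and 5.42 in saline and 37.9, 64.6 and 106 in cisplatin kidneys. Gdf15 (23886; chromosome 8, 70629393 to 70632470), which encodes a secreted stress cytokine, had 12.7, 14.0 and 10.5 in saline and 39.9, 66.8 and 67.6 in cisplatin kidneys. Both were lowest among cisplatin kidneys in replicate 1, the library with Y-linked RNA, and in both that value was still well above every saline value.

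Plk2 (20620; chromosome 13, 110395044 to 110400844), a polo-like kinase induced in stressed cells, had a TPM of 4.64, 5.51 and 2.99 in saline and 18.8, 18.1 and 26.4 in cisplatin kidneys. Ccng1 (12450; chromosome 11, 40748552 to 40755309), cyclin G1 and an early recognized p53 target, was the most abundant of the 9, at 98.4, 90.0 and 83.3 in saline and 267, 220 and 315 in cisplatin kidneys. Aen (68048; chromosome 7, 78895927 to 78911209), an apoptosis-enhancing nuclease, had 12.4, 13.8 and 16.5 in saline and 34.9, 34.0 and 50.5 in cisplatin kidneys. In all 3 genes the cisplatin kidneys formed a group of their own above saline, with replicate 3 the highest.
Sesn2 (230784; chromosome 4, 132492804 to 132510456), a sestrin that restrains mTORC1 and limits oxidative stress, had a TPM of 27.4, 24.4 and 18.4 in saline and 47.7, 57.2 and 63.7 in cisplatin kidneys. Exoc4 (20336; chromosome 6, 33249090 to 33973979), an exocyst subunit, had the tightest values of the 9, at 8.77, 9.43 and 8.29 in saline and 17.7, 17.8 and 17.1 in cisplatin kidneys. Exoc4 overlaps Gm13854 and Gm38785 in the annotation, so that reads in the overlaps are uncertain.

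On the log2(TPM + 1) scale the fold changes of these 8 genes ran from 0.92 (SE 0.11) for Exoc4 to 3.43 (SE 0.39) for Cdkn1a, with 2.88 (SE 0.37) for Phlda3, 2.11 (SE 0.21) for Gdf15 and 2.05 (SE 0.25) for Plk2, and their limma adjusted p were 0.0173 for Gdf15 and 0.0222 for the other 7. The exact permutation test of 3 against 3 kidneys gave 0.1 for each, the smallest it can give. Leaving out any of saline replicates 1, 2 and 3 or cisplatin replicates 2 and 3 left 0 genes called, with the highest adjusted p at 0.107 for Gdf15 and Cdkn1a and 0.155 for Ccng1 and Phlda3, whereas leaving out cisplatin replicate 1 gave 41. With a Y-linked covariate, 57 genes were called higher (0.381%) and 1 lower, among them all 9 and 22 genes of the p53 lists. Fitting the 6 wild-type libraries alone left 0 called, as did the replicate number as a block, with an adjusted p of 0.0766 for each of the 8. Under median-ratio scaling Exoc4, Aen and Ccng1 lost their calls (adjusted p 0.0940, 0.0626 and 0.0966), and by voom on the recovered reads Phlda3 did (0.0625).

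**Figure D1:**
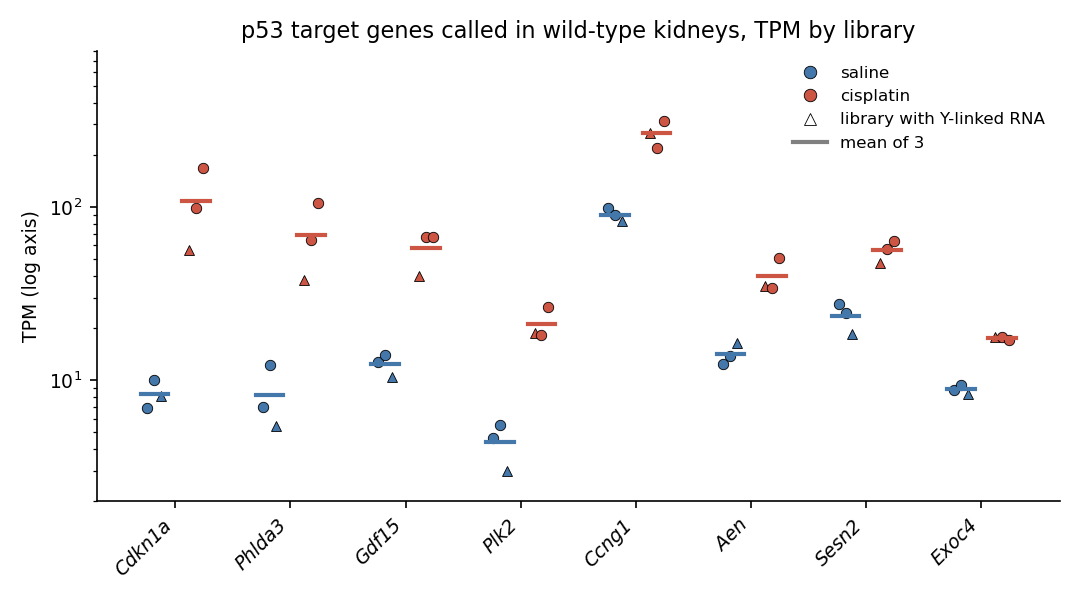
TPM (log axis) of the 8 called p53 target genes in each of the 3 saline (blue) and 3 cisplatin (red) wild-type kidneys, with bars at the means and triangles for the libraries with Y-linked RNA. The cisplatin values of every gene lie above its saline values, from 17.1 against 9.43 in Exoc4 to 56.8 against 9.98 in Cdkn1a.

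Mir5106 (100628618; chromosome 4, 44221195 to 44221267, minus strand) is a microRNA gene. Its mature form in RefSeq is shown with the seed, bases 2 to 8, in capitals.
mmu-miR-5106: aGGUCUGUagcucaguuggcaga
Its TPM was 0 in all 3 saline and 1.22, 3.72 and 1.97 in the cisplatin kidneys, which stood for 3, 6 and 3 reads. Over the group, 12 of 135037678 reads against 0 of 181738493 is at least 5.38-fold higher, with 3 reads over the saline group as the floor, and it was 0 in all 6 FAN1KO libraries too. It passed the filter on low values through the 3 wild-type cisplatin libraries alone and so had to differ, and its call (limma adjusted p 0.0428) was lost by voom on the recovered reads (adjusted p 0.136).

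Beyond the calls, most p53 targets had higher values after cisplatin. The lists hold 63 genes, of which 62 were tested and Trp73 was not. They were drawn up from general knowledge of p53, its own gene included, but with earlier results of these data known. The counts on them are therefore a description and not an independent test. Their median log2 fold change was 0.56, beside 0.08 for all genes tested, and 58 of the 62 were above 0, as were 10681 of all 14972 genes. At an unadjusted p under 0.05, 29 were higher (background 2.55%) and 0 lower (0.448%), and the groups did not overlap, with cisplatin above, for 32 (5.20%). Without saline replicate 2, 28 were higher at that level, and over the 6 libraries left out in turn the number ran from 26 to 36. In the same fits the number over all genes tested, 382 with every library, ran from 212 to 1295.

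Of the 22 arrest and feedback genes tested, 11 were higher at an unadjusted p under 0.05, with a list median of 0.74. Mdm2, the ubiquitin ligase that limits p53, had a TPM of 30.9, 27.6 and 19.0 in saline and 40.3, 49.1 and 58.7 in cisplatin kidneys, without overlap (log2 fold change 0.92, SE 0.21, limma adjusted p 0.425, and 0.0167 with the Y-linked covariate). Trp53, the gene of p53, had 25.6, 24.8 and 26.6 in saline and 30.3, 38.3 and 31.0 in cisplatin kidneys, also without overlap but differing only by a log2 fold change of 0.35 (SE 0.14). Trp53 stands on the arrest and feedback list and was among its smaller differences.
Of the 18 apoptosis genes, 8 were higher at that level, with a median of 0.42. Eda2r, a death-domain receptor of the TNF family, went from a TPM of 0.0698, 0.225 and 0.0686 to 1.15, 2.02 and 3.89. Bbc3, which encodes the BH3-only protein PUMA, went from 3.08, 4.63 and 5.03 to 7.54, 10.9 and 14.2. Neither overlapped between the groups, and neither was called (limma adjusted p 0.133 and 0.201). Bax, the pore-forming effector whose promoter is shown above, had 89.1, 109.5 and 119 in saline and 144, 210 and 230 in cisplatin kidneys (log2 fold change 0.86, SE 0.19, adjusted p 0.348).
Of the 22 genes of repair and metabolism, 10 were higher at that level, with a median of 0.44. Dglucy, which encodes D-glutamate cyclase of mitochondria, had a TPM of 44.4, 47.3 and 52.9 in saline and 92.8, 88.7 and 111 in cisplatin kidneys. Mgmt, which removes alkyl groups from guanine, had 11.6, 11.5 and 9.29 in saline and 22.7, 22.8 and 45.7 in cisplatin kidneys. Outside these lists, Rps27l, a ribosomal protein paralog that p53 also induces, had 381, 349.7 and 404 in saline and 574, 546 and 729 in cisplatin kidneys (log2 fold change 0.69, SE 0.14, adjusted p 0.208). The 87 cytosolic ribosomal protein genes tested had a median of 0.10, close to that of all genes.

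**Figure D2:**
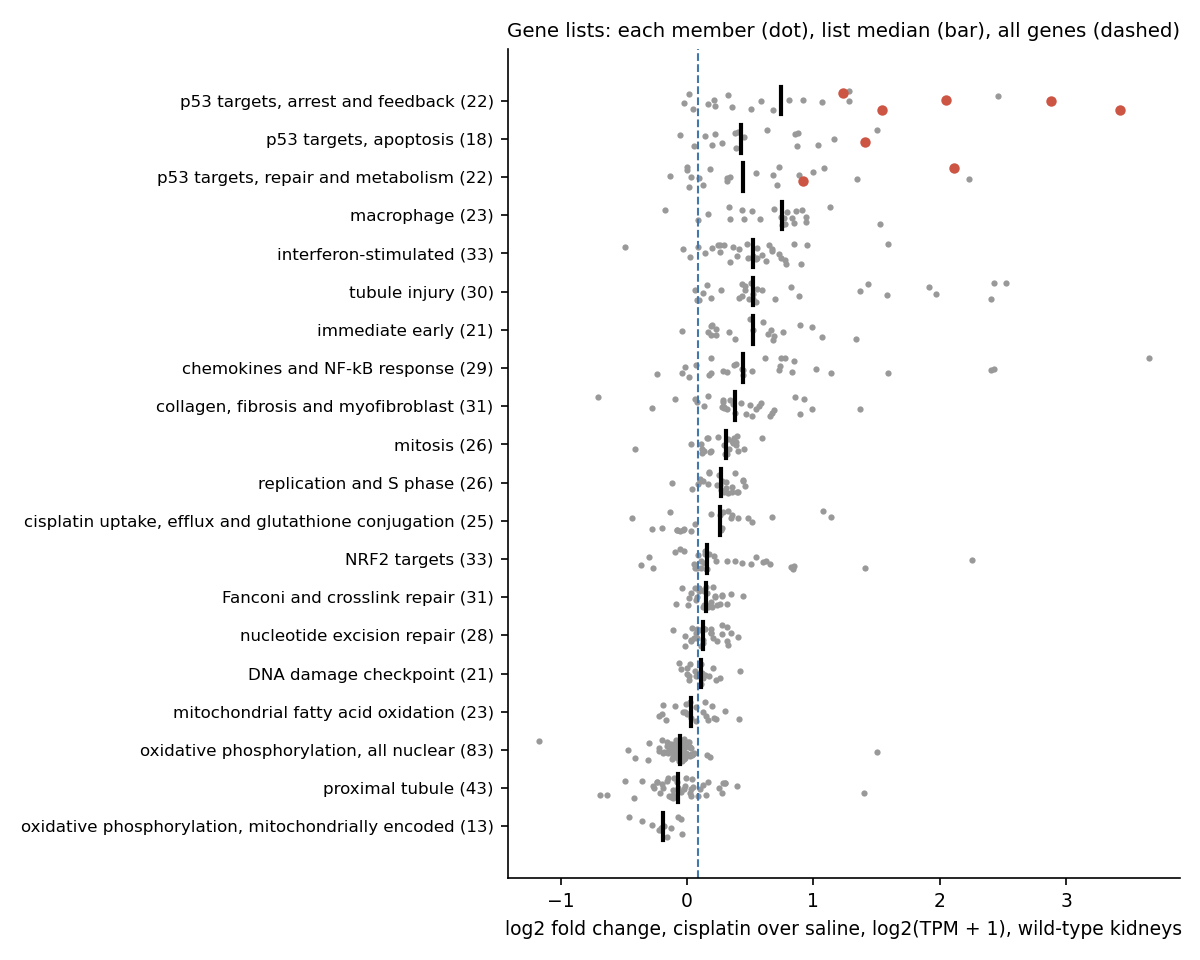
Log2 fold change of each tested member (grey dots, red where called at an adjusted p under 0.05) of 20 gene lists in wild-type kidneys, with the number of members in brackets, the list median as a black bar and the median of all genes tested, 0.08, as a dashed line. The p53 lists hold all the red dots of the lists drawn and have medians of 0.42 to 0.74, while the repair and checkpoint lists sit at 0.11 to 0.15.

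The same targets were followed in FAN1KO kidneys, where 34.9% of all genes tested were called higher after cisplatin. Of the 62 p53 targets, 47 were called higher there and 0 lower, with a median log2 fold change of 1.24 against 0.56 in wild-type kidneys. The difference between the genotypes was tested by the interaction in the same fit, which was positive for 11 of the 62 (background 5.22%) and negative for 0 (1.02%). Cdkn1a changed by 3.43 in wild-type and 5.56 in FAN1KO kidneys (interaction adjusted p 0.0472 by limma) and Gdf15 by 2.11 and 4.37 (0.00597). Bbc3 changed by 1.16 and 3.52 (0.00597) and Trp53 by 0.35 and 1.45 (0.0162).
For Exoc4 the values were 0.92 and 0.85 (0.815), for Ccng1 1.54 and 1.68 (0.798) and for Sesn2 1.24 and 0.90 (0.390). Dglucy, at 1.00 in wild-type and 0.33 in FAN1KO kidneys, lay furthest on the wild-type side of those named, with an interaction that did not pass (0.127). With the Y-linked covariate the interaction of Dglucy passed (limma adjusted p 0.0353). Under that covariate 4088 positive and 646 negative interactions passed among the 14972 genes tested. Those of Plk2 (0.0165) and Phlda3 (0.00287), larger in FAN1KO kidneys, were among them. Exoc4, Ccng1 and Sesn2 were not shown to respond differently, and a p above the threshold does not show that they respond alike.

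**Figure D3:**
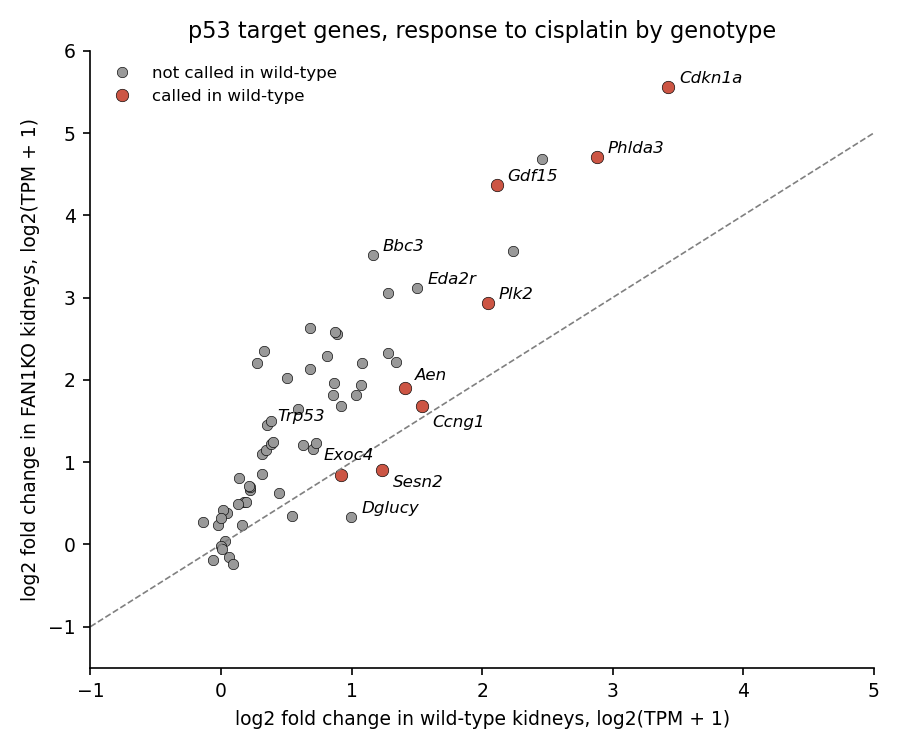
Log2 fold change after cisplatin on log2(TPM + 1) of the 62 tested p53 target genes in wild-type (x axis) and FAN1KO (y axis) kidneys, red where called in wild-type kidneys, with a dashed line of equal change. Cdkn1a (3.43 and 5.56) and Gdf15 (2.11 and 4.37) lie above the line, Ccng1 (1.54 and 1.68) lies close to it, and Exoc4, Sesn2 and Dglucy lie under it.

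The largest differences beside the called genes were in genes of inflammation and amine and epoxide metabolism, and all of them were larger in the kidneys without Y-linked RNA. By rule these were the largest log2 fold changes among genes with an unadjusted p under 0.05, no overlap and a mean TPM of at least 5. Ccl5, a chemokine that draws T cells and monocytes, had a TPM of 1.29, 3.18 and 1.80 in saline and 11.8, 54.8 and 74.5 in cisplatin kidneys (log2 fold change 3.66, SE 0.64, limma adjusted p 0.119). Vcam1, an adhesion molecule of activated endothelium and of tubule cells that fail to recover from injury, had 3.51, 4.02 and 1.96 in saline and 8.16, 37.6 and 35.3 in cisplatin kidneys (2.53, SE 0.57).
Ccl2, the monocyte chemoattractant, had a TPM of 0.388, 0.998 and 0.396 in saline and 2.02, 8.94 and 19.1 in cisplatin kidneys (2.43, SE 0.61). Aoc1, a diamine oxidase that degrades histamine and polyamines, had 2.02, 2.38 and 1.60 in saline and 8.67, 23.8 and 23.9 in cisplatin kidneys (2.60, SE 0.42, adjusted p 0.0682). Ephx1, microsomal epoxide hydrolase and a member of the p53 lists, had 46.7, 48.6 and 18.9 in saline and 61.9, 221 and 351 in cisplatin kidneys (2.24, SE 0.60). Within the libraries with Y-linked RNA, 1 against 1, the differences were 2.20 for Ccl5, 1.63 for Vcam1, 1.11 for Ccl2, 1.90 for Aoc1 and 1.66 for Ephx1, and within those without it, 2 against 2, they were 4.39, 2.98, 3.08, 2.96 and 2.52. With the Y-linked covariate, Ccl5, Aoc1, Vcam1 and Ephx1 were called (adjusted p 0.00878, 0.0154, 0.0335 and 0.00557) and Ccl2 was not (0.149).

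The genes with the largest negative log2 fold changes by the same rule were not called by limma in the main comparison or with the Y-linked covariate. Npy, which encodes neuropeptide Y, had a TPM of 10.1, 12.5 and 7.23 in saline and 1.41, 3.48 and 2.19 in cisplatin kidneys (log2 fold change −1.72, SE 0.43, adjusted p 0.631). Cish, a feedback inhibitor of cytokine and growth hormone receptors, had 60.0, 55.4 and 54.3 in saline and 15.1, 33.9 and 31.8 in cisplatin kidneys (−1.12, SE 0.32). In both genes all 3 saline values, that of replicate 2 with its adrenal RNA and those of the others, lay above the cisplatin values.
Aacs, acetoacetyl-CoA synthetase, had 49.9, 63.2 and 119 in saline and 48.8, 39.5 and 23.7 in cisplatin kidneys. Mfsd2a, a transporter of lysophospholipids, had 65.3, 48.9 and 54.7 in saline and 18.9, 32.8 and 34.9 in cisplatin kidneys. Rnf24, Gm7429 and A630076J17Rik were also lower without overlap, with log2 fold changes of −1.05, −1.24 and −0.87. Of the 7 genes named here, Gm7429 alone had an interaction past the threshold, with log2 fold changes of −1.24 in wild-type and 2.29 in FAN1KO kidneys (adjusted p 0.0248).

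**Figure D4:**
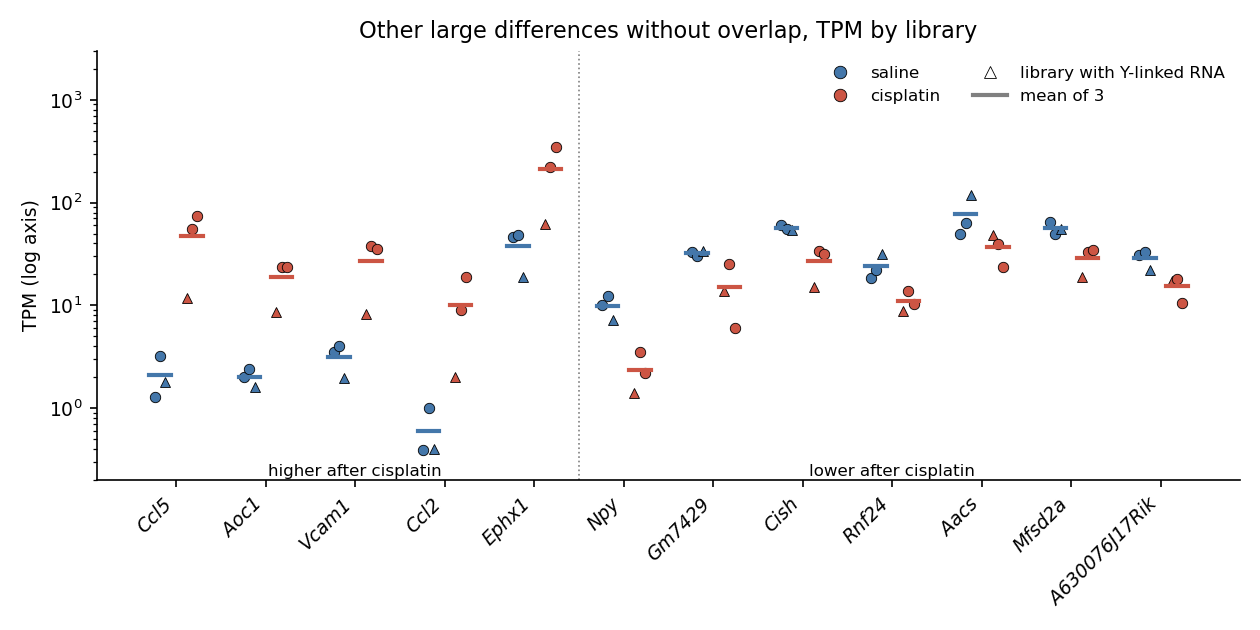
TPM (log axis) by library of 5 further genes with the largest positive (left of the dotted line) and 7 among those with the largest negative log2 fold changes without overlap in wild-type kidneys, colours, bars and triangles as in the plot of called genes. In the 5 genes on the left the cisplatin library with Y-linked RNA is the lowest of the 3, as in Ccl5 with 11.8 against 54.8 and 74.5.

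Tubule injury genes were on the side of higher values without a call. All 30 tested had a log2 fold change above 0, as did 10681 of all 14972 genes tested, with a median of 0.52, 9 were higher at an unadjusted p under 0.05 (background 2.55%), and 6 did not overlap (5.20%). With 1 library left out the median ran from 0.28 without cisplatin replicate 2 to 0.96 without cisplatin replicate 1 and the number higher at that level from 5 to 15, and 24 were above 0 without saline replicate 3. Over all genes tested the number higher at that level ran from 212 to 1295. Without and with Y-linked RNA the medians were 0.70 and 0.22. The injury marker Havcr1, the gene of KIM-1, was not among them: its TPM was 60.5, 50.3 and 20.4 in saline and 19.6, 63.2 and 64.9 in cisplatin kidneys (log2 fold change 0.12, SE 0.86). Lcn2, the gene of NGAL, had 3.33, 5.21 and 2.48 in saline and 4.37, 42.1 and 20.8 in cisplatin kidneys (1.92, SE 0.64). Cisplatin replicate 1 lay within the saline range in Lcn2 and just under it in Havcr1.
Havcr1 changed by 5.65 and Lcn2 by 7.72 in FAN1KO kidneys, and both interactions passed the threshold (limma adjusted p 0.0300 and 0.0111), as they did for 13 of the 30 genes of the list (5.22%). Cd44, a hyaluronan receptor of injured and immune cells, had a TPM of 0.625, 0.786 and 0.339 in saline and 1.31, 4.38 and 5.15 in cisplatin kidneys, without overlap. Cxcl1, a neutrophil chemokine, had 0.458, 0.487 and 0.439 in saline and 1.73, 13.2 and 10.9 in cisplatin kidneys, also without overlap.

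Chemokine and macrophage lists had medians above that of all genes, and larger ones in the libraries without Y-linked RNA than in the pair with it. Of 29 chemokine and NF-kB response genes tested, 11 were higher at an unadjusted p under 0.05 (background 2.55%) and 5 did not overlap (5.20%), with a median of 0.44. Without cisplatin replicate 2 or 3 the 11 became 5, and the 382 of all genes tested became 212 or 227. Their median difference was 0.70 in the 4 libraries without Y-linked RNA and 0.20 in the pair with it. For the 23 macrophage genes tested the median was 0.75, the values without and with Y-linked RNA were 0.94 and 0.19, and 2 genes were higher at that level, Ctss and Fcgr1, against 0 without saline replicate 1 or 3 or cisplatin replicate 2 or 3 and 13 without cisplatin replicate 1. Of all genes tested, 344, 329, 212, 227 and 1295 were higher in these fits, in that order. Fcgr1, the high-affinity IgG receptor, had a TPM of 0.278, 0.719 and 0.378 in saline and 1.04, 1.98 and 1.44 in cisplatin kidneys.
The macrophage list summed to a TPM of 1044, 1281 and 651 in saline and 659, 2307 and 1978 in cisplatin kidneys, so that the groups overlapped and the 2 libraries with Y-linked RNA were the lowest of all 6. Lyz2, lysozyme of myeloid cells, had 26.5, 38.0 and 17.7 in saline and 23.7, 104 and 79.9 in cisplatin kidneys. In whole kidneys, more cells of a type and more RNA per cell cannot be told apart. The 14 lymphocyte genes tested had a median of 0.52 and 0 members at that level.
Interferon-stimulated genes showed the reverse split. Of 33 tested, 14 did not overlap (5.20%), 8 were higher at an unadjusted p under 0.05 (2.55%), the median was 0.52, and the values were 0.39 without and 0.59 with Y-linked RNA. The 8 became 1 without saline replicate 1, 2 without cisplatin replicate 2, and 4 without saline replicate 3 or cisplatin replicate 1. For all genes tested the counts in these fits were 344, 212, 329 and 1295. Cxcl10, an interferon-induced T cell chemokine, had a TPM of 3.52, 4.50 and 2.97 in saline and 6.47, 19.8 and 16.3 in cisplatin kidneys. Oas1a, an antiviral oligoadenylate synthetase with close relatives that may share its reads, had 1.62, 3.00 and 2.59 in saline and 5.31, 5.56 and 3.65 in cisplatin kidneys. With 1 library of each group holding Y-linked RNA, the split was not tested for any list, and its part in these differences was not tested.

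**Figure D5:**
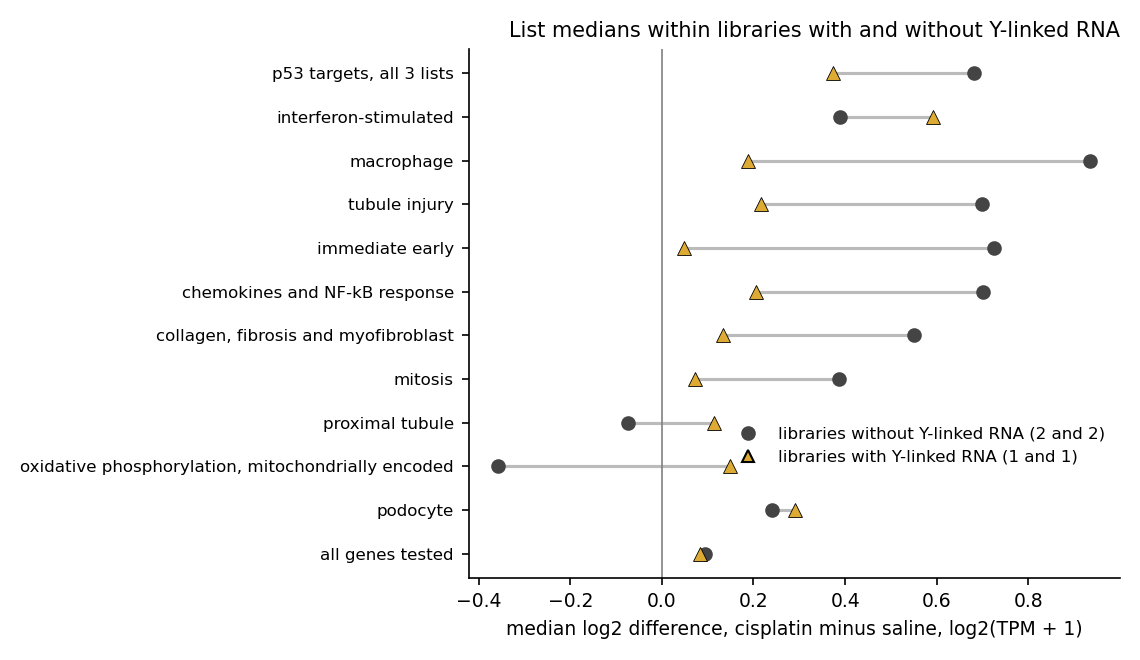
Median log2 difference, cisplatin minus saline on log2(TPM + 1), of 11 gene lists and of all genes tested within the 4 wild-type libraries without Y-linked RNA (circles, 2 against 2) and within the pair with it (triangles, 1 against 1). The p53 lists are above 0 in both (0.68 and 0.37), the macrophage list is at 0.94 and 0.19, and all genes tested are at 0.09 and 0.08.

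Immediate early and stress genes followed the same libraries. Of 21 immediate early genes tested, 6 were higher at an unadjusted p under 0.05 (2.55%) with a median of 0.52, and the medians without and with Y-linked RNA were 0.72 and 0.05. Without cisplatin replicate 1 the 6 became 14, and without cisplatin replicate 2 or 3 they became 3. The 382 of all genes tested became 1295 without cisplatin replicate 1, and 212 and 227 without replicates 2 and 3. Myc, the growth-promoting transcription factor, had a TPM of 3.01, 2.89 and 2.58 in saline and 4.06, 11.8 and 7.00 in cisplatin kidneys, without overlap. Atf3, a stress-induced transcription factor, had 1.60, 2.01 and 1.19 in saline and 2.48, 4.31 and 6.29 in cisplatin kidneys, and its response differed between genotypes (0.99 in wild-type, 2.90 in FAN1KO kidneys, interaction adjusted p 0.0367 by limma).
Of the 30 genes of the ATF4 and unfolded protein response, 1 was called, Sesn2 (0.0601% of all genes), and the median was 0.14, with 0.26 and −0.14 without and with Y-linked RNA and −0.01 without cisplatin replicate 2. Among 31 genes of collagen, fibrosis and myofibroblasts, 3 were higher at an unadjusted p under 0.05 (2.55%) and 0 did not overlap (5.20%), with a median of 0.38 that was 0.55 and 0.13 without and with Y-linked RNA. With 1 library left out this median ran from 0.04 without cisplatin replicate 2 to 0.94 without cisplatin replicate 1, and the 3 genes became 0 to 10. The 382 of all genes tested became 212 to 1295. Ccn1 and Timp1, a matricellular protein and an inhibitor of matrix proteases, were in cisplatin replicate 1 at 18.2 and 0.831, within their saline ranges, and at 48.9 and 7.89 in replicate 2. Of 20 genes of senescence and its secretory products, 5 were higher at that level (2.55%), Ccl2, Cxcl1 and Cxcl2 among them, chemokines that the chemokine list also holds. The 5 became 10 without cisplatin replicate 1 and 3 without saline replicate 3 or cisplatin replicate 2 or 3. For all genes tested the counts in these fits were 1295, 329, 212 and 227.

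Proximal tubule identity genes showed no loss of the size seen in FAN1KO kidneys. Of 43 tested, 0 were lower at an unadjusted p under 0.05 (0.448% of all genes) and 1 was higher (2.55%). The median was −0.07 (−0.18 under median-ratio scaling, where that of all genes was −0.01), whereas 23 were called lower after cisplatin in FAN1KO kidneys (background 4.90%). In the 4 wild-type libraries without Y-linked RNA, 7 were lower and 2 higher at that level, beside 434 and 1908 of all 14972 genes. Without saline replicate 3, 3 were lower and 1 higher, beside 186 and 329 of all genes tested. The medians without and with Y-linked RNA were −0.07 and 0.11. Slc34a1, with the values given above, had a log2 fold change of −0.15 (SE 0.23) in wild-type and −1.59 in FAN1KO kidneys, and Lrp2, the endocytic receptor megalin, −0.10 (SE 0.23) and −1.49. Both interactions passed the threshold (limma adjusted p 0.0338 and 0.0390). Slc22a6 and Slc22a2, the organic anion and cation transporters of which the latter carries cisplatin, were high in the libraries with Y-linked RNA in both groups, at 619 and 319 in saline and 738 and 332 in cisplatin kidneys, and at 237 to 320 and 166 to 177 in the others.
Cyp24a1, which inactivates vitamin D, was the member higher at an unadjusted p under 0.05, at 42.5, 28.7 and 91.2 in saline and 248, 171 and 50.2 in cisplatin kidneys, with overlap. Keg1, an abundant acyltransferase-family gene of the tubule, had a TPM of 2202, 2001 and 2314 in saline and 1705, 1988 and 1083 in cisplatin kidneys, without overlap (log2 fold change −0.49, SE 0.24).

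Markers of the other nephron segments had small medians. The medians were −0.30 for 8 thick ascending limb genes, −0.19 for 8 distal convoluted tubule genes, −0.20 for 9 principal cell genes and 0.34 for 9 intercalated cell genes, and the 1 member of these at an unadjusted p under 0.05 was Foxi1, the transcription factor of intercalated cells, at 25.6, 27.9 and 14.8 in saline and 27.6, 39.5 and 45.1 in cisplatin kidneys. Without cisplatin replicate 1 the thick ascending limb median was 0.08 and the distal convoluted tubule median −0.00497, and the latter was −0.37 and 0.19 without and with Y-linked RNA. Egf, an abundant product of the distal nephron, changed by −0.42 in wild-type and −2.53 in FAN1KO kidneys (interaction adjusted p 0.0395 by limma). Podocyte genes summed to 72.9 and 88.0 in the saline and cisplatin libraries with Y-linked RNA and to 175 to 258 in the other 4, and endothelial genes to 145 and 133 against 369 to 590, so that these lists separated the libraries by Y-linked RNA and not by treatment.

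Of 25 genes that handle cisplatin, by uptake, efflux and glutathione conjugation, 1 was higher at an unadjusted p under 0.05 (2.55%), Gsr, the glutathione reductase, and the median was 0.26 beside 0.08 for all genes. Of 33 NRF2 targets, genes of the response to oxidative stress, 4 were higher at that level (2.55%), with a median of 0.16. Of the 33, 27 were above 0, as were 10681 of all 14972 genes. The 4 became 10 without cisplatin replicate 1 and 1 without saline replicate 3, where 1295 and 329 of all genes tested were higher. Nqo1, a quinone reductase, had a TPM of 44.5, 42.4 and 45.9 in saline and 63.8, 115 and 69.6 in cisplatin kidneys. Txnrd1, thioredoxin reductase, had 74.9, 77.1 and 75.0 in saline and 98.2, 293 and 84.8 in cisplatin kidneys. Both were without overlap, and both were highest in cisplatin replicate 2, in which the summed NRF2 list stood at 20615, against 11580 to 13233 in the other 5 libraries. Akr1b8, an aldo-keto reductase, changed by 0.66 in wild-type and 3.62 in FAN1KO kidneys (interaction adjusted p 0.00697).

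DNA repair genes had small differences. Of 31 Fanconi and crosslink repair genes, 28 genes of nucleotide excision repair and 21 of the DNA damage checkpoint, 0 were higher or lower at an unadjusted p under 0.05 by limma (2.55% and 0.448% of all genes), with medians of 0.15, 0.13 and 0.11 beside 0.08 for all genes. The groups did not overlap, with cisplatin above, for 2, 5 and 0 of them (5.20% of all genes). With the Y-linked covariate 4, 6 and 1 of them were higher at an unadjusted p under 0.05, beside 1626 of all 14972 genes. Rpa2, a subunit of the single-strand binding protein, came nearest, at a TPM of 8.86, 8.19 and 6.72 in saline and 8.36, 11.4 and 12.9 in cisplatin kidneys. In FAN1KO kidneys 17, 17 and 11 of these genes were called higher, at 34.9% of all genes.
Replication genes had a median of 0.27 over 26 genes, with 2 higher at an unadjusted p under 0.05 (2.55%), 1 without saline replicate 1 or cisplatin replicate 3 and 10 without cisplatin replicate 1. Of all genes tested, 344, 227 and 1295 were higher in these fits, in that order. Mcm7, a subunit of the replicative helicase that overlaps Ap4m1 and 3 microRNA genes, had a TPM of 11.4, 12.8 and 14.1 in saline and 15.6, 18.6 and 18.9 in cisplatin kidneys (log2 fold change 0.44, SE 0.13), against 1.67 in FAN1KO kidneys (interaction adjusted p 0.0111 by limma). The 26 mitotic genes had a median of 0.31, with 0.39 and 0.07 without and with Y-linked RNA, and their summed TPM was 40.2, 48.6 and 18.9 in saline and 18.9, 56.8 and 69.4 in cisplatin kidneys, again lowest in the libraries with Y-linked RNA.

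Mitochondrial genes were close to or under the median of all genes. Of 13 mitochondrially encoded genes, 2 did not overlap, with cisplatin below (1.08% of all genes). At an unadjusted p under 0.05, 0 were lower (0.448%) or higher (2.55%). All 13 had a log2 fold change below 0, with a median of −0.19. Their share of TPM was 22.1%, 21.0% and 18.2% in saline and 20.6%, 17.7% and 17.4% in cisplatin kidneys, or 20.4% ± 1.98 and 18.6% ± 1.76 (SD, n = 3, exact permutation p 0.2, smallest possible 0.1). Within the pair with Y-linked RNA the list median was 0.15 and within the other 4 libraries −0.36, so that the direction rested on the libraries without it.
Of 83 nuclear genes of oxidative phosphorylation, 13 were above 0, beside 10681 of all 14972 genes, with a median of −0.06 (−0.16 under median-ratio scaling). Within the libraries without Y-linked RNA 36 of them were above 0 (median −0.03), and within the pair with it 19 (−0.17). Without cisplatin replicate 1, 24 of the 39 complex I genes were above 0, against 9 with all libraries. At an unadjusted p under 0.05, 1 of the 83 was higher (2.55% of all genes) and 1 lower (0.448%). The lower was Ndufs3, a complex I subunit, at 255, 255 and 259 in saline and 203, 230 and 228 in cisplatin kidneys. The higher was Cox6b2, a complex IV isoform, at 74.4, 77.3 and 28.0 in saline and 71.1, 158 and 339 in cisplatin kidneys, with overlap. Fatty acid oxidation had a median of 0.03 over 23 genes, with Cpt2, a carnitine palmitoyltransferase, at 101, 97.4 and 97.8 in saline and 128, 117 and 120 in cisplatin kidneys, without overlap (log2 fold change 0.30, SE 0.13, adjusted p 1.00).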

How the data were processed

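RNA of whole kidneys was sequenced in 12 libraries, 3 per genotype and treatment, grouped by their labels. The authors deposited 1 table of TPM, in which each library sums to 1000000 over 27179 genes and 0 value columns were left unused. The submitters' processing notes name mm10 and limma, and the aligner, annotation and program behind the TPM are not given in the sources used here. The 14972 genes that reached a TPM of 1 in 3 or more of the 12 libraries were tested with limma 3.58.1 in R 4.3.3 on log2(TPM + 1), a scale that understates the change of low genes, with 4 group means over all libraries, a mean-variance trend and Benjamini-Hochberg adjustment at 0.05. p-values measure the spread between these samples. Single values were compared by two-sided exact permutation tests. Whole reads were recovered from the TPM steps (232991 of 232991 values above 0 within 0.02 reads). The length of each gene was the smallest that made its reads whole, so that this count is no independent check. Of 401 small RNA genes, 296 came out at their annotated length. The voom fit on the recovered reads, chosen after seeing the data, called 10 genes, 7 of the 9 main calls among them. The members and gene lists were chosen with earlier results of these data known. Genes named were every called gene, the 8 largest log2 fold changes each way among genes with an unadjusted p under 0.05, no overlap and a mean TPM of at least 5, up to 4 genes per list by smallest p, and Havcr1, Lcn2, Mdm2, Trp53, Slc34a1, Slc22a6, Slc22a2, Lrp2 and Fan1. Coordinates, promoters and the miRNA are from the RefSeq tables of GRCm38.p6. Alternatives covered the pseudocount, filter, scaling, trend, replicate block, a Y-linked covariate and each library left out. The scripts were tested on simulated data. Some genes that this rule names are not reported here.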

Additional observations from a re-analysis of the deposited data

Results flagged for a closer look

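The interaction of genotype and cisplatin in the limma fit passed the threshold for 16 of the named genes (adjusted p 0.00597 to 0.0494), and its size is given as the FAN1KO minus the wild-type log2 fold change. It was positive for 12 genes. Among p53 targets and p53 itself the difference was 2.36 for Bbc3, 2.26 for Gdf15, 2.13 for Cdkn1a, 1.62 for Eda2r and 1.09 for Trp53. Among injury and stress genes it was 5.80 for Lcn2, 5.53 for Havcr1, 2.96 for Akr1b8, 1.91 for Atf3 and 1.63 for Ccn1. It was 1.22 for Mcm7 and 3.53 for Gm7429. It was negative for 4 genes, at −1.44 for Slc34a1, −1.38 for Lrp2 and −2.11 for Egf, and at −1.65 for Mir5106, which passed the filter on low values through the wild-type cisplatin libraries alone, so that its interaction had to differ and is no test. Groups of 3 kidneys were not searched for outlying samples.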

How the results depend on the processing

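In wild-type kidneys the 9 genes called higher became 14 under median-ratio scaling (with Exoc4, Aen and Ccng1 lost), 14 without the mitochondrially encoded genes, 0 when the 6 wild-type libraries were fitted alone, 57 with the Y-linked covariate, 61 in the 4 libraries without Y-linked RNA, 18 at an adjusted p under 0.1 and 0 to 41 with 1 library left out. Genes called lower went from 0 to 1 with scaling, 1 with the Y-linked covariate and 2 in the 4 libraries. A replicate block left 0 genes called in either direction. The numbers do not pair the samples: the deviations of same-numbered wild-type libraries correlated at −0.55, 0.60 and −0.60, so that the block gives no evidence of a weaker effect. Interaction calls (782 positive, 153 negative) were 351 and 73 with the replicate block and 4088 and 646 with the Y-linked covariate. Positive calls were 332 with scaling and 217 to 640 with a library left out, and negative calls 57 to 99. In FAN1KO kidneys 5229 higher and 733 lower genes became 2157 and 2101 with scaling and 7919 and 1222 with the Y-linked covariate, both chosen after seeing the data. Scaling moved the median of all genes from 0.08 to −0.01 and turned Fan1 to −0.0481 and Slc22a2 to −0.0698. With a library left out the log2 fold change of Havcr1 ran from −0.34 to 0.68, Slc22a6 −0.15 to 0.74, Slc22a2 −0.28 to 0.34, Lrp2 −0.26 to 0.0164 and Fan1 −0.18 to 0.17. The cause of these changes was not tested. Depth limits low genes: 1 read in a gene of 1 kilobase was at most 0.0479 TPM.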

Other observations

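The clock output gene Dbp had a TPM of 66.5, 73.7 and 26.0 in the saline and 12.6, 9.42 and 69.4 in the cisplatin kidneys of wild-type mice, with overlap. The 19 circadian clock genes tested had a median log2 fold change of 0.04, and 0 were higher or lower at an unadjusted p under 0.05 by limma.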
